A study of Mus musculus with 4 samples.

Results

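The apolipoproteins described here are Apoe, Apoc3, Apoh, Apoa1, Apoa2, Apoa4, Apoa5, Apob, Apoc1 and Apom. They were chosen by gene symbol, from probes whose platform annotation gives only that symbol. All 10 genes had a probe with a value on every array, out of 13544 named genes, and 12 of the 28845 probes belonged to them. Apoe and Apoa4 had 2 probes each and the other 8 genes had 1. AceGene Mouse oligonucleotide arrays were used. The RNA came from livers of male mice of the strain C57Bl/6J, fed either an atherogenic diet (called plain here) or its combination with a high-fat diet, each for 6 or 24 weeks. Each of these 4 conditions was hybridised in Cy5 to 1 array, against Cy3-labelled liver RNA from mice on standard chow. All RNA, chow included, had been amplified. The chow duration matches the diet on 3 arrays and is not given for the plain atherogenic 6-week array. Ages, diet composition, the number of mice behind an RNA, and whether arrays shared a chow RNA, are not stated in these sources.

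Apolipoproteins are the protein parts of the particles that carry cholesterol and triglyceride in blood, and the liver secretes most of them. Apob is the structural protein of very low and low density lipoproteins, and Apoa1 and Apoa2 are the main proteins of high density lipoprotein. The smaller exchangeable members move between particles and govern how fast enzymes and receptors remove their lipid.

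Values are log2 ratios of diet over chow, so 0 means equal signal and 1 means a doubling. The base of the deposited logarithms is not stated and was read as 10, so sizes depend on that reading and adjusted p-values do not. Medians over all probes lay between -0.06 and 0.02 on the arrays, with SDs across probes of 0.53 and 0.46 for the plain diet (6 and 24 weeks) and 0.37 and 0.39 for high fat. With 1 array per condition no condition has an error of its own, and precision is limited by how few arrays there are. P-values for diet over chow therefore measure the spread between 4 conditions, not between mice, and leave out the spread of chow. For high fat and duration they rest on 1 residual degree of freedom, the interaction of diet and duration, and again not on mice. In each comparison limma draws a gene's standard error partly from the spread of all genes, most of all in those 2. There Apoa2, Apoa4 and Apoa5 all have a standard error of 0.14. No dye was swapped, so a probe's preference for a dye and an effect of diet cannot be told apart. In whole liver, fewer cells of a type and less RNA per cell cannot be told apart either. Since the values are ratios, the presence of a marker in these livers could not be checked, only its change.

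Sequence upstream of the start of 3 members is shown for the contrast in what follows: Apoh was the member that rose over chow, Apoa4 was the member that was higher with high fat, and Apoa1, which lies in the same chromosome 9 cluster as Apoa4, stayed near 0. The 250 bases before the annotated start come from RefSeq on GRCm38.p6, plus strand, chr11:108395047-108395296, chr9:46240594-46240843 and chr9:46228380-46228629 in the order printed.
Apoh: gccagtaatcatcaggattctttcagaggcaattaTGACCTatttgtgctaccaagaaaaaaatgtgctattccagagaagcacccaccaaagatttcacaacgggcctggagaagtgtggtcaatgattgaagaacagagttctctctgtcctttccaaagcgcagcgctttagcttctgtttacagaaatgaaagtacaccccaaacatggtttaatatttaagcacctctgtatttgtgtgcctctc
Apoa4: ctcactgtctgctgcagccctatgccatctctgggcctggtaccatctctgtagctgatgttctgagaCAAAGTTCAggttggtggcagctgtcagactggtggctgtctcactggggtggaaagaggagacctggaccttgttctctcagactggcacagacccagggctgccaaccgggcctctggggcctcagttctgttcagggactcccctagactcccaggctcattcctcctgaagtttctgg
Apoa1: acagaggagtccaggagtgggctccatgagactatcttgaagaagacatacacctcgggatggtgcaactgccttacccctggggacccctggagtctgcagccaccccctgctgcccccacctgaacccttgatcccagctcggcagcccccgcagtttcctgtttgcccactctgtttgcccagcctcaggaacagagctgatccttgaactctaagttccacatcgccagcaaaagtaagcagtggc
Capitals mark matches to 3 motifs searched on both strands: TATAAA, the TATA box, AGGTCA, a hexamer bound by many nuclear receptors, and CAAAGTNCA, a form of the HNF4 site. Apoh held 1 AGGTCA match, as the reverse complement, 215 bases before the start, and Apoa4 held 1 CAAAGTNCA match 182 bases before it. The Apoa1 window held no match. Among 32851 upstream windows of the same length, 12.4% held TATAAA, 14% AGGTCA and 1.19% CAAAGTNCA. Of the 10 members, 8 had an entry in the promoter table. Among those not printed, AGGTCA matched in 1 Apoa2 window, and TATAAA in windows of Apoe, Apoa2, Apoa5 and Apob. Apom held no match, and no Apoe window held AGGTCA or CAAAGTNCA. Whether the motifs bear on the changes was not tested.

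On single arrays the family was not moved as a block. The median of the 10 members was 0.01 (6 weeks) and 0.05 (24 weeks) for the plain diet and -0.09 (6 weeks) and -0.31 (24 weeks) for high fat, beside medians of 0, 0.05, -0.01 and -0.01 over all genes. At least 1.5-fold from chow lay 4 members on the plain 6-week array, where 20% of all genes did: Apoe, Apoc1 and Apoh higher (13% of all genes) and Apob lower (7.01%). On the plain 24-week array 3 members passed that fold (14% of all genes), Apoe and Apoh higher (9.13%) and Apoa4 lower (4.88%). On the high-fat 6-week array 6 members passed (6.94% of all genes), Apoa4 and Apoh higher (2.94%) and Apoe, Apoc1, Apoc3 and Apoa2 lower (4%). On the high-fat 24-week array 4 members passed (7.94% of all genes), Apoh higher (3.6%) and Apoe, Apoc1 and Apoa2 lower (4.33%). Apoh was higher by that fold on all 4 arrays, and Apoe passed it on all 4 in directions that changed with the diet. On the plain 24-week array Apoe stood only at the limit, 1.5-fold. Both its probes gave a reading there that probes of other genes gave too, so this pass cannot be credited to Apoe alone. The share of all genes passing on all 4 arrays was not counted.

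**Figure D1:**
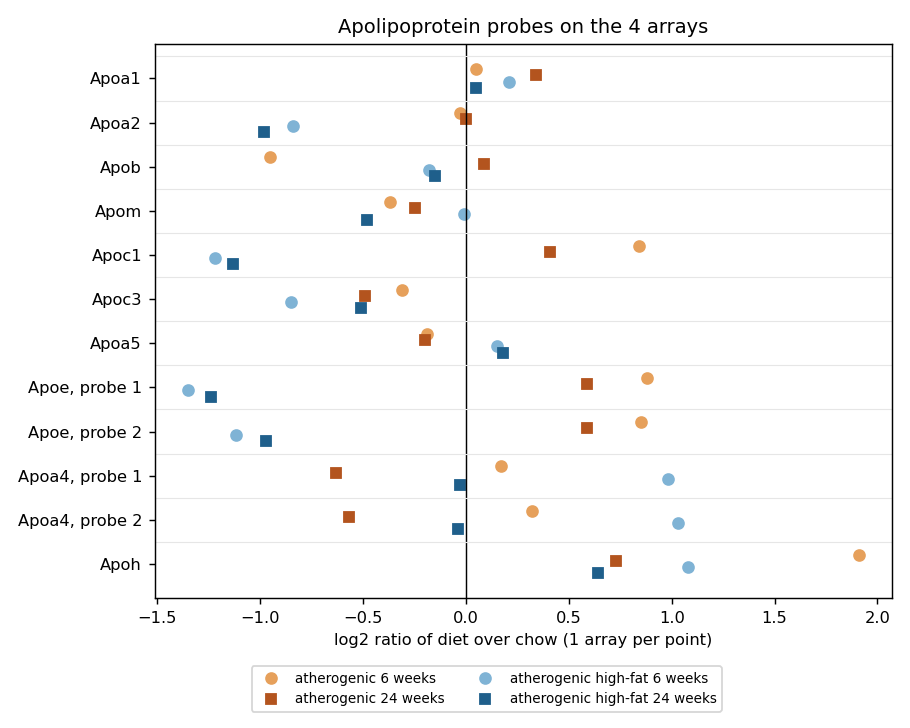
Log2 ratio of diet over chow (x axis) for each of the 12 apolipoprotein probes (rows), with 1 point for each of the 4 arrays; circles are 6 weeks, squares 24 weeks, orange and brown the plain atherogenic diet, light and dark blue the high-fat form. Apoh lies right of 0 on all arrays and Apoc3 left of 0, while the Apoe and Apoc1 points separate by diet.

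The first comparison asks which members differed from chow over both diets and durations. Over the 4 arrays Apoh rose and Apoc3 fell, and the other 8 members did not pass. That is 2 of 10 at an adjusted p under 0.05 (limma, Benjamini-Hochberg over all genes), where 12.1% of all genes passed, 6.27% higher and 5.8% lower. At an unadjusted p under 0.05 there were 4 members, these and Apoa2 and Apom, where 30.8% of all genes lay. A model with terms for diet and duration called 5 members, adding Apoa2, Apoc1 and Apom, but also 37.9% of all genes, and one with duration as a random block called 4, adding Apoa2 and Apom, and 32.8% of all genes. The median of the members' mean ratios was -0.25, against 0 for all genes.

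Apoh encodes beta-2-glycoprotein I, a plasma protein that binds anionic phospholipids. Its log2 ratio was 1.91 on the plain atherogenic 6-week array, 0.73 on the plain 24-week array, 1.08 on the high-fat 6-week array and 0.64 on the high-fat 24-week array. All arrays were above 0, and in each diet the 6-week value was the higher. The mean was 1.09 ± 0.21 (limma SE, 4 arrays), a 2.13-fold rise (limma adjusted p = 0.0243). The call ended without the plain 24-week array (limma adjusted p = 0.088) or the high-fat 6-week array (0.0587), with means of 1.21 and 1.09.

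Apoc3 encodes an inhibitor of lipoprotein lipase and of the uptake of remnant particles. It stood at -0.31 (6 weeks) and -0.49 (24 weeks) with the plain diet, and at -0.85 (6 weeks) and -0.51 (24 weeks) with high fat. Every array was below 0, and the high-fat 6-week array was lowest. The mean was -0.54 ± 0.11, a 1.45-fold fall (limma adjusted p = 0.0274). This call ended without the plain 24-week array (limma adjusted p = 0.112), the high-fat 6-week array (0.0791) or the high-fat 24-week array (0.0751), with means between -0.55 and -0.43.

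Of the core proteins of lipoproteins, none passed over chow. Apob stood at -0.95 on the plain 6-week array, 0.09 on the plain 24-week array, -0.18 on the high-fat 6-week array and -0.15 on the high-fat 24-week array. A single array, at a ratio 1.93-fold below chow, set its mean of -0.29 ± 0.17 (limma adjusted p = 0.284). Apoa1, the activator of the cholesterol-esterifying enzyme Lcat, lay between 0.05 and 0.34 on the arrays. Its mean was 0.16 ± 0.09 (limma adjusted p = 0.268). Apom, the carrier of sphingosine-1-phosphate in high density lipoprotein, stood at -0.37, -0.25, -0.01 and -0.48 on the plain 6-week, plain 24-week, high-fat 6-week and high-fat 24-week arrays. All 4 were below 0, but the mean of -0.28 ± 0.1 did not pass (limma adjusted p = 0.125).

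Being on one side of 0 throughout was common: Apoh and Apoa1 were higher on all 4 arrays, as were 20.7% of all genes, and Apoc3 and Apom were lower on all 4, as were 20% of all genes.

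**Figure D2:**
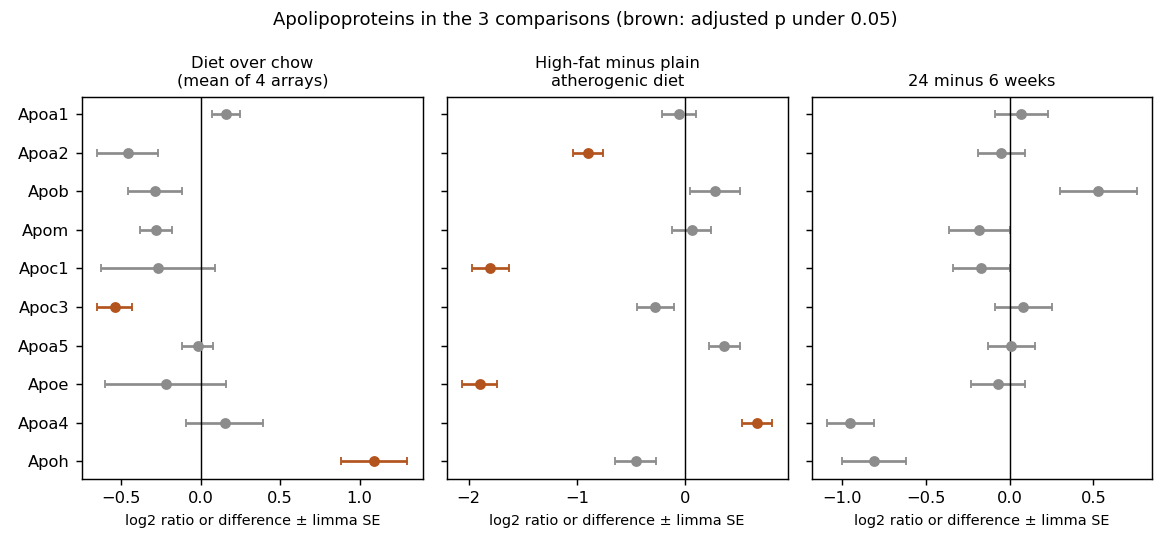
The 3 comparisons for the 10 genes: mean log2 ratio of diet over chow, log2 difference of high-fat minus plain atherogenic diet, and log2 difference of 24 minus 6 weeks (x axes), with limma standard errors from 4 arrays. Brown points passed an adjusted p of 0.05: Apoh and Apoc3 on the left, Apoe, Apoc1, Apoa2 and Apoa4 in the middle, none on the right.

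The second comparison asks what the high-fat form of the diet changed. Apoe, Apoc1 and Apoa2 were lower and Apoa4 was higher with high fat, which is 4 of 10 members, where 10.8% of all genes passed. The direction was higher for 3.72% of all genes and lower for 7.1%. Without an adjustment 6 members lay under a p of 0.05, these and Apoa5 and Apoh, as did 32.6% of all genes. The median difference of the members was -0.17, against -0.07 for all genes. The comparison uses the same 4 arrays as the first, so the 2 sets of values are not independent.

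Apoe, the ligand through which remnant particles are taken up by the liver, has 2 probes, AGmmB061322 and AGmmB160111. The first read 0.88 (6 weeks) and 0.59 (24 weeks) with the plain diet, then -1.35 (6 weeks) and -1.24 (24 weeks) with high fat. The other read 0.85 and 0.59, then -1.12 and -0.97, in the same order. Both probes put the plain arrays above chow and the high-fat arrays below it, with no overlap. Their agreement at 0.59 on the plain 24-week array is no check of either, because probes of other genes read the same there. The -1.35 of the first probe on the high-fat 6-week array was likewise read by probes of other genes. The gene's difference was -1.90 ± 0.16 (limma adjusted p = 0.00606), being -2.10 at 6 weeks and -1.69 at 24 weeks.

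The Apoe ratios, in size or direction, and the test built on them cannot be read at face value. Both probes lay, within 0.003 on the log10 scale, at a deposited value of 0.177 (0.59 in log2) on the plain 24-week array. Exactly this value was held by 63 probes where the surrounding values would give 29.0. The window around it held 242 probes, so most probes in the window did not hold the exact value. The first also lay, within that window, at a value of -0.406 (-1.35 in log2) on the high-fat 6-week array. Exactly that value was held by 14 probes where 1.6 would be due, and the window held 35. The high-fat 24-week array had such a value at -0.384 (-1.28 in log2), near which no Apoe probe fell within that window. No such value was found on the plain 6-week array. Over all probes 0.969% lay within that window of a shared value on any array. Among the 11 hepatocyte marker genes measured, 9 of 17 probes did, and these belonged to 4 of the genes.

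With high fat 6 of those 11 hepatocyte markers were lower, as Apoe was, 2 were higher and 3 did not pass. The median of the markers was 0.25 (6 weeks) and 0.39 (24 weeks) for the plain diet against -0.80 and -0.41 for high fat. Below chow lay 4 of the 11 on each plain array, all 11 on the high-fat 6-week array and 8 on the high-fat 24-week array. Transthyretin, Ttr, stood at 0.42 (6 weeks) and 0.58 (24 weeks) with the plain diet, at -1.35 and -1.27 with high fat, a difference of -1.81 ± 0.14 (limma adjusted p = 0.00468). The 3 probes of transferrin, Trf, read 0.59 on the plain 24-week array, as Apoe did. Albumin, Alb, differed by -1.53 ± 0.15, although 1 of its 3 probes was at -1.28 on the plain 6-week array where the other 2 were at 0.74. The markers that were higher were Pck1, by 0.96 ± 0.14 (limma adjusted p = 0.0201), and Fga, by 0.80 ± 0.16 (0.0321). On the high-fat 6-week array these too were below chow, at -0.28 and -0.22. The differences of Tat (0.72), Hpx (-0.53) and Serpinc1 (-0.40) did not pass. The part of the shared values in the difference between diets was not tested.

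**Figure D3:**
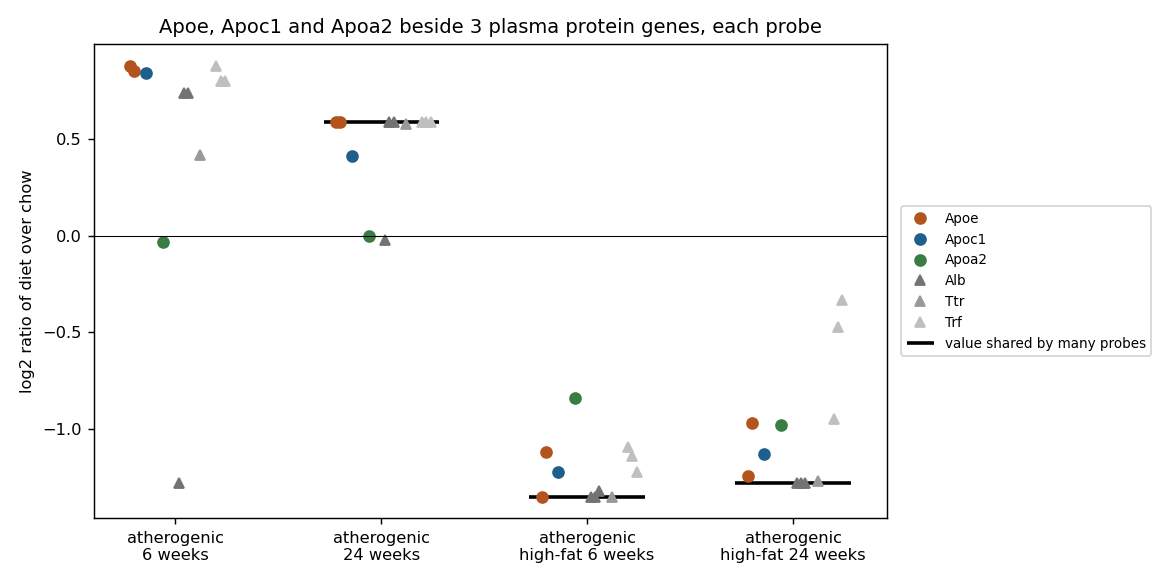
Log2 ratio of diet over chow (y axis) of each probe of Apoe, Apoc1 and Apoa2 (circles) and of Alb, Ttr and Trf (triangles) on the 4 arrays (x axis); points of a gene are set slightly apart. Black bars mark the values shared by many probes, at 0.59, -1.35 and -1.28, on which probes of Alb, Ttr and Apoe lie.

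Macrophages also make Apoe. The median of the macrophage markers was 1.17 (6 weeks) and 0.93 (24 weeks) for the plain diet, 0.67 and 0.59 for high fat. Of 10 measured, 6 rose over chow and 1 was lower with high fat, and their median difference for high fat was -0.35. Their part in the Apoe difference was not tested.

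Apoc1 encodes a small exchangeable protein that hinders receptor uptake of remnants. Its single probe read 0.84 (6 weeks) and 0.41 (24 weeks) with the plain diet, -1.22 and -1.13 with high fat. The diets did not overlap, and the order of the 4 arrays was that of Apoe. The difference was -1.80 ± 0.17 (limma adjusted p = 0.00962), and no Apoc1 value lay at a shared value.

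Apoa2 gave -0.03 (6 weeks) and 0 (24 weeks) with the plain diet, -0.84 and -0.98 with high fat. It lay within 0.03 of chow with the plain diet and was 1.79-fold and 1.97-fold below it with high fat. The difference was -0.90 ± 0.14 (limma adjusted p = 0.0208), with none of its values at a shared value. Apart from Apoe, then, 3 members passed for high fat without probes at shared values, Apoa2, Apoc1 and Apoa4. The window of 0.003 (log10) is narrow, and lying outside it does not clear a probe. With high fat Apoc1 read -1.22 (6 weeks) and -1.13 (24 weeks), not far from the shared values of -1.35 and -1.28. The hepatocyte marker Fgb, at -1.28 and -1.26, also lay outside the window.

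Apoa4 encodes a lipid-binding protein of chylomicrons and high density lipoprotein, made in intestine and, in rodents, in liver. Probe AGmmB020707 read 0.17 on the plain 6-week array, -0.63 on the plain 24-week array, 0.98 on the high-fat 6-week array and -0.03 on the high-fat 24-week array. Probe AGmmB150319 read 0.32, -0.57, 1.03 and -0.04 in the same order. The probes ranked the arrays alike, with the high-fat 6-week array highest, 2.01-fold above chow, and the plain 24-week array lowest, 1.52-fold below. With high fat the gene was higher by 0.66 ± 0.14 (limma adjusted p = 0.0349), by 0.76 at 6 weeks and 0.57 at 24 weeks, though the diets overlap when durations are pooled.

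Among the members that did not pass for high fat, Apoa5, which promotes the hydrolysis of triglyceride by lipoprotein lipase, had the narrowest groups. It read -0.19 (6 weeks) and -0.20 (24 weeks) with the plain diet, 0.15 and 0.18 with high fat, a difference of 0.36 ± 0.14 (limma adjusted p = 0.125). Apoe, Apoc1 and Apoa5 had plain and high-fat arrays on opposite sides of 0, as 19.4% of all genes did. Both high-fat arrays lay above both plain ones for Apoa5, as for 25% of all genes, and below them for 4 members, Apoe, Apoc1, Apoa2 and Apoc3, as for 36.4%. Apoh differed by -0.46 ± 0.19 (limma adjusted p = 0.153), and this difference turned to 0.06 when the arrays were scaled to a common spread. Apoc3 differed by -0.28, Apob by 0.27, Apom by 0.06 and Apoa1 by -0.06. The Apob difference was 0.77 at 6 weeks and -0.24 at 24 weeks.

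The third comparison asks what the longer duration changed. No member passed, and none of all genes did (limma, 0% called). At an unadjusted p under 0.05 there were 2 members, Apoa4 and Apoh, where 9.81% of all genes lay. Apoa4 was lower at 24 weeks by -0.85 with the plain diet and by -1.04 with high fat, -0.95 ± 0.14 in all (limma adjusted p = 0.155). Its 6-week arrays were both above 0 and its 24-week arrays both below, as in 4.19% of all genes. Apoh stood lower at 24 weeks by -1.18 and -0.44 in the plain and high-fat diets (-0.81 ± 0.19, limma adjusted p = 0.359). Both had their 24-week arrays below both 6-week arrays, as in 10.4% of all genes. Apob stood higher at 24 weeks by 1.04 with the plain diet and by 0.03 with high fat (0.53 ± 0.23, limma adjusted p = 0.513). Its 24-week arrays were both above its 6-week arrays, as in 13.9% of all genes. The remaining 7 members differed between -0.18 and 0.08.

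Of the members, 6 lie in 2 gene clusters. In the RefSeq annotation Apoc2, Apoc4, Apoc1 and Apoe are neighbours on chromosome 7, and Apoa1, Apoc3, Apoa4 and Apoa5 on chromosome 9. Apoa2 is on chromosome 1, Apoh on 11, Apob on 12 and Apom on 17. In the chromosome 7 cluster Apoc4 read 0.87 (6 weeks) and 0.39 (24 weeks) with the plain diet, -0.80 and -0.09 with high fat. It was lower with high fat (-1.08 ± 0.26, limma adjusted p = 0.0449), as Apoc1 and Apoe were. Apoc2, the activator of lipoprotein lipase, read 0.57, 0.08, 0.78 and 0.95 on the plain 6-week, plain 24-week, high-fat 6-week and high-fat 24-week arrays. Its high-fat arrays were the highest, and it rose over chow by 0.60 ± 0.15 (limma adjusted p = 0.0486). In the chromosome 9 cluster each gene took its own course, with Apoc3 below chow throughout, Apoa1 above it by little, and Apoa4 and Apoa5 on either side.

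**Figure D4:**
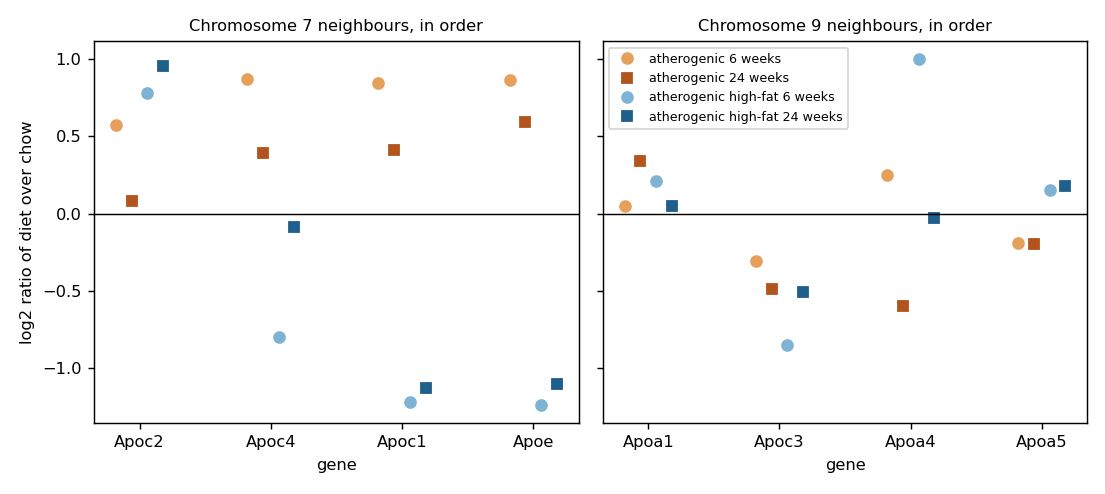
Log2 ratio of diet over chow (y axis) for neighbouring genes in chromosomal order (x axis), 1 point per array and colours by diet and duration. On chromosome 7, Apoc4, Apoc1 and Apoe have blue high-fat points below 0 and Apoc2 has them at 0.78 and 0.95.

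Likeness across arrays was measured as the root mean square difference of the 4 log2 ratios. Within the family Apoe and Apoc1 were closest, at 0.09, and Apoh stood farthest from any other member, at 1.09 from Apoa1. The Apoe ratios at shared values enter this measure, and their part in the likeness was not tested. Among all 13543 other genes, those nearest to Apoe were 2700038G22Rik and Apoc1, both at 0.09, and to Apoc1 Apoe and 2700038G22Rik (0.12). Nearest to Apoh were Cetn3 (0.13) and Clec4d (0.15), and to Apoa4 the cytochrome oxidase subunits Cox7b (0.20) and Cox7a2 (0.21). Apoa2 had Pcdhga9 (0.10) and Dnah1 (0.12), and Apoc3 had 4930426L09Rik and Nnmt, both at 0.09. Cdo1 (0.07) and Tbca (0.10) were nearest to Apob. Members with ratios near 0 had nearer genes, Mrpl24 and Pak1ip1 for Apoa1 (0.04 and 0.05), Fasl and Slc1a3 for Apoa5 (0.02 and 0.03), and Rtf2 and Kti12 for Apom (0.03 and 0.06).

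The other genes of lipoprotein metabolism came from a list of 70 measured genes in 5 groups. Of them 11 passed over chow, 6 passed for high fat and 16 did so in either. As shares of the list these are 15.7% over chow and 8.57% for high fat, near the 12.1% and 10.8% of all genes. Of 12 other apolipoproteins, 1 rose over chow, Apoc2, and 1 fell, Apon, by 0.80 on the log2 scale (limma adjusted p = 0.0124). Their median was 0.10, and with high fat 1 was lower, Apoc4.

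In the group for assembly and secretion, 1 of 12 fell and 1 rose over chow. Mttp, which loads lipid onto Apob, read -0.88 (6 weeks) and -0.28 (24 weeks) with the plain diet, -0.48 and -0.47 with high fat. All were below 0, and the mean was -0.53 ± 0.11 (limma adjusted p = 0.0334). Apobec1, which edits Apob mRNA to the shorter form, rose by 0.51 ± 0.13 (limma adjusted p = 0.0493). Abca1, which loads cholesterol onto Apoa1, stood at 0.10 ± 0.18 (limma adjusted p = 0.739).

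Plasma enzymes held the largest values of the list. Of 10 measured, 2 rose and 1 fell over chow. Lpl, the lipase that Apoc2 activates and Apoc3 inhibits, read 1.55 (6 weeks) and 2.37 (24 weeks) with the plain diet, 1.83 and 1.53 with high fat, a mean of 1.82 ± 0.15 (limma adjusted p = 0.00237). Pla2g7, the lipoprotein-associated phospholipase, rose by 1.21 ± 0.20 and was lower with high fat by -0.96 ± 0.14 (limma adjusted p = 0.0201). The paraoxonase Pon1, carried on high density lipoprotein, fell by 0.93 on the log2 scale (limma adjusted p = 0.0212). Lcat stood at -0.13 ± 0.1 (limma adjusted p = 0.404).

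Among 12 receptors and adaptors, 1 rose over chow, the receptor chaperone Lrpap1, by 0.41 ± 0.09 (limma adjusted p = 0.031). Scarb1, the receptor for high density lipoprotein, stood at 0.28 (limma adjusted p = 0.0848) and Lrp1, a remnant receptor, at -0.14 (0.333). With high fat Cubn, which takes up Apoa1 in the kidney, was higher by 1.05 ± 0.17 (limma adjusted p = 0.0222). Vldlr, a receptor for triglyceride-rich particles, was lower by -0.56 ± 0.14 (0.0485).

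Of 24 transcriptional regulators, 1 rose and 2 fell over chow, and 2 were lower with high fat. The nuclear receptor Rora rose by 0.62 ± 0.13 (limma adjusted p = 0.029). Foxa1 fell by 0.42 and Nr2f1 by 0.43 on the log2 scale (limma adjusted p = 0.0374 and 0.0222). The Foxa1 mean came mostly from 1 of its 2 probes. AGmmB161215 read -0.95 (6 weeks) and -0.48 (24 weeks) with the plain diet, -0.97 and -0.66 with high fat. AGmmB240409 read -0.23, -0.02, -0.12 and 0.06 in the same order. Hnf4a, a main activator of apolipoprotein genes in hepatocytes, stood at -0.28 ± 0.09 (limma adjusted p = 0.0989). Its arrays read between -0.53 and -0.16, all below 0. The coactivator Ppargc1a and the factor Onecut1 were lower with high fat, by -0.65 and -0.58 (limma adjusted p = 0.0336 and 0.0427).

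**Figure D5:**
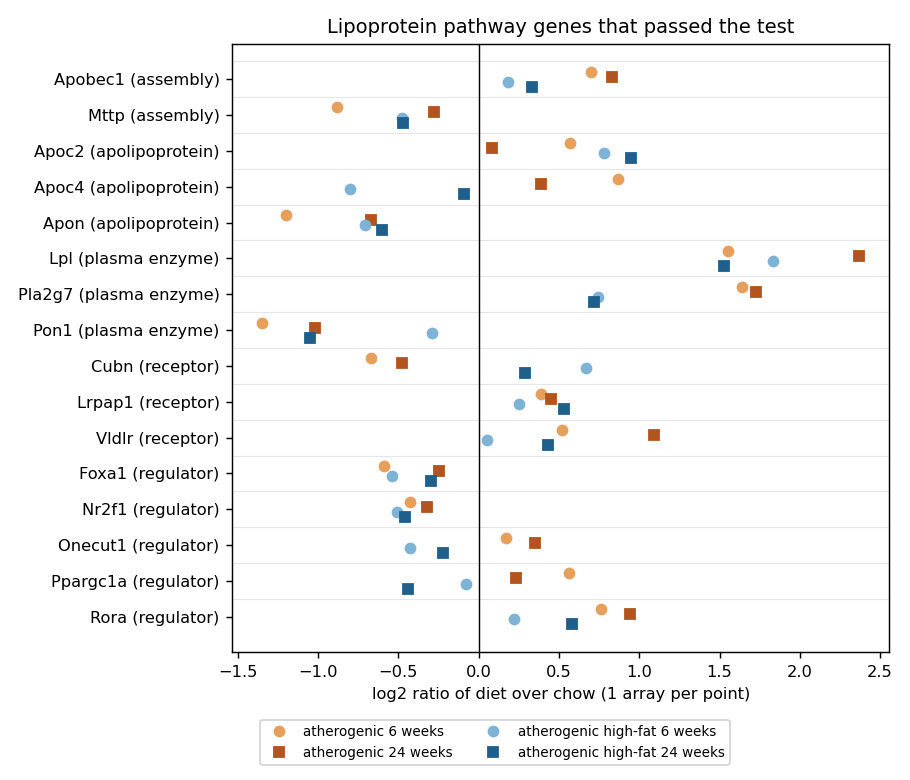
Log2 ratio of diet over chow (x axis) on the 4 arrays for the 16 lipoprotein genes outside the family that passed for diet over chow or for high fat (rows, with their group in brackets). Lpl and Pla2g7 lie right of 0, Pon1, Apon and Mttp left of 0, and Cubn changes side with diet.

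Of the 11 pathway genes called over chow, 5 passed without the plain 6-week array, 2 without the plain 24-week array (Lpl and Apoc2), 5 without the high-fat 6-week array and 3 without the high-fat 24-week array. Lpl passed in each of these fits, and Mttp, Apobec1, Lrpap1 and Foxa1 passed in none of them.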

How the data were processed

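The authors deposited signed log ratios of LOWESS-normalized two-colour arrays, read here as log10; an Agilent G2505B scanner, GenePix Pro 4.1 for the spots and GeneSpring 7.2 for the normalization are named in the series' design text. LOWESS evens out dye differences that depend on intensity, not those of a single probe. Base and direction of the ratio are not stated: base 10 was read from the spread of values and diet over chow from the dyes in the labels. Median deposited values were -0.019, -0.005, 0.006 and 0.006 on the plain 6-week, plain 24-week, high-fat 6-week and high-fat 24-week arrays; centring beyond LOWESS is unknown, and background correction is not given in the sources used here.

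Values were converted to log2. Probes with a missing value (975 of 28845) were left out. Of all probes 17637 had 1 gene symbol, 64 several and 11144 were unnamed; 252 of those with 1 symbol had no match in the RefSeq table of GRCm38.p6. A gene is the mean of its probes.

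Tests used limma 3.58.1 in R 4.3.3 (lmFit, eBayes, two-sided, Benjamini-Hochberg over all genes, threshold 0.05). Diet over chow is the mean of 4 arrays set against 0 (residual degrees of freedom: 3). The terms for high fat and for duration come from an additive model with 1, which is their interaction, so the interaction was not tested. The labels do not say whether samples were pooled. Named were all members, pathway genes past the threshold, Mttp, Lrp1, Scarb1, Lcat, Abca1 and Hnf4a (a further gene of this rule is not reported here), and the 2 genes most like each member. The members and lists were chosen with earlier results of these data known; the rule for shared values (at least 10 probes at 1 value, 6 Poisson standard deviations above the number its surroundings within 0.02 would give) was set after the values were seen.

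On simulated data with the spread of each fit, 100 of 100 changes of 1 log2 unit were recovered in each comparison, with 12, 23 and 8 false calls for diet, high fat and duration among 13544 genes. The simulated noise was independent between arrays and genes. In the data themselves no gene passed for duration, and Apoa4 did not at -0.95 (limma adjusted p = 0.155). The simulation therefore does not show that a change of that size would have been called here.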

Additional observations from a re-analysis of the deposited data

Results flagged for a closer look

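The high-fat and plain atherogenic diets differed in their ratio to chow for 4 members, by the high-fat term of limma's additive model over 4 arrays. Apoe differed by -1.90 and Apoc1 by -1.80, each with both plain arrays above 0 and both high-fat arrays below. Apoa2 differed by -0.90 and Apoa4 by 0.66. On the plain 24-week array both Apoe probes lay within 0.003 (log10) of a value that many probes shared. Probe AGmmB061322 also did so on the high-fat 6-week array. No probe of Apoc1, Apoa2 or Apoa4 lay so near such a value, but the window is narrow and lying outside it does not clear a probe.

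Apoa5 had both plain arrays below 0 and both high-fat arrays above, with a difference of 0.36 that did not pass (limma adjusted p = 0.125). Apoa4 had both 6-week arrays above 0 and both 24-week arrays below, with a difference of -0.95 that did not pass (limma adjusted p = 0.155).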

How the results depend on the processing

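The counts of members called, 2 over chow, 4 with high fat and 0 by duration, were the same with arrays centred or scaled, extreme ratios limited, robust eBayes, other gene summaries, probes with 3 values kept, an adjusted p of 0.1 or another log base. Another log base cannot change an adjusted p, and the limit, at 4 in log2, lay beyond every member's ratio, so these 2 settings show little. Without probes at shared values Apoe could not be fitted and 3 members passed for high fat. For diet over chow, terms for diet and duration gave 5 members (37.9% of all genes) and duration as a random block 4 (32.8% of all genes). Leaving out 1 array gave between 0 and 2 members. Over all genes the count went from 1634 to 5132 and 4447 in those models, and to 284, 793 and 753 without the plain 24-week, high-fat 6-week and high-fat 24-week arrays. At an adjusted p of 0.1 it was 2896, and for high fat 3177 against 1466. Centring changed the split for high fat from 504 higher and 962 lower to 375 and 1195. Read as base 2, Apoh would stand at 0.33 and the Apoe difference at -0.57.

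Signs turned only for values that did not pass. Centring turned Apoa5 for duration to -0.01. Scaling turned Apoa5 over chow to 0.02, Apoe for duration to 0.01, and Apoh and Apom for high fat to 0.06 and -0.07. Leaving out single arrays took the ratios over chow across 0, Apoa5 between -0.08 and 0.04 (0.04 without either plain array), Apoe between -0.58 and 0.12 (0.07 without the high-fat 24-week array), Apoc1 between -0.65 and 0.04 (0.01 without the high-fat 24-week array), and Apoa4 between -0.13 and 0.41. Of the members' tested values under the alternatives, 365 kept direction and side of the threshold, 12 changed sign, 5 gained and 5 lost the call. Of the differences within a duration or a diet, which have no test, 10 lay within the fit's standard error of the additive value, 20 moved further with the same sign and 10 had the other sign. For high fat these were Apoa1 at 6 weeks (0.16) and Apob and Apom at 24 weeks (both -0.24). For duration they were Apoc3 (-0.18), Apoa2 (0.04), Apoa5 (0) and Apom (0.12) with the plain diet, and Apoe (0.13), Apoa1 (-0.16) and Apoc1 (0.10) with high fat. Apart from the construction of these fits the cause was not tested. No paired analysis was possible because each condition had 1 array and no replicate number; high fat was instead compared beside a term for duration. The high-fat and duration terms leave no residual spread without an array, so they were given within each duration and diet only.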

Other observations

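On the plain atherogenic 6-week array, where Apob had its lowest ratio (-0.95), the hepatocyte markers were split, with 7 of 11 above 0, 4 below and a median of 0.25. Above 0 were Trf (0.83), Ahsg (0.45), Ttr (0.42), Hpx (0.30), Fgb (0.28), Ambp (0.25) and Alb (0.07). Below 0, the tyrosine aminotransferase Tat read -1.53, the fibrinogen chain Fga -1.25 and the gluconeogenic enzyme Pck1 -1.15, and the antithrombin Serpinc1 -0.40. Genes of the lipoprotein lists chosen after their values were seen were also low there, Pon1 at -1.35, Apon at -1.20, Mttp at -0.88 and Apof at -0.82. Other genes of these lists were high there, among them Pla2g7 at 1.64 and Lpl at 1.55. The lists as a whole were not low on that array, with medians between -0.16 and 0.23. Fga and Pck1 were the 2 hepatocyte markers that were higher with high fat, by 0.80 ± 0.16 and 0.96 ± 0.14 (limma adjusted p = 0.0321 and 0.0201). The fibrinogen chain Fgb went the other way, by -1.5 ± 0.14 (limma adjusted p = 0.00938), reading 0.28 (6 weeks) and 0.19 (24 weeks) with the plain diet, -1.28 and -1.26 with high fat.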
